A study of Homo sapiens with 64 samples.

Results

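The genes described here encode the cAMP-dependent protein kinase, protein kinase A (PKA), and proteins that hold it in check or in place: the catalytic subunits PRKACA and PRKACB, the regulatory subunits PRKAR1A, PRKAR1B, PRKAR2A and PRKAR2B, the inhibitor peptides PKIA, PKIB and PKIG, and the anchoring protein AKAP12. Members were identified in the files by gene symbol. Every probe set whose platform annotation gives a member's symbol was taken, which made 27 of the 54675 probe sets on the array and 10 of the 19775 genes tested. Each gene is represented by its brightest probe set, by mean log2 signal over the 64 arrays, and further probe sets are named by their identifiers where given.

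The cells were BEAS-2B, an established human airway epithelial cell line, grown in a serum-free keratinocyte medium with epidermal growth factor, pituitary extract and antibiotics, and then held in the medium for 24 h more. All groups share this history. In all, 64 arrays were measured, 4 replicates in each of 16 groups: vehicle, indacaterol at 10 nM, GSK 256066 at 10 nM, and the 2 drugs together at 10 nM each, all at 1, 2, 6 and 18 h. Indacaterol is a long-acting agonist of the β2-adrenoceptor, and GSK 256066 inhibits phosphodiesterase 4, an enzyme that breaks down cAMP. The comparisons ask whether a drug that raises cAMP, alone or with a drug that slows its removal, also changes the mRNA of the kinase that cAMP switches on. The labels do not say whether the replicates were separate cultures, so p-values measure only the spread between these arrays.

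As background, PKA at rest is a complex of catalytic subunits held by a dimer of regulatory subunits. cAMP binds the regulatory subunits and frees the catalytic subunits, which then phosphorylate proteins in the cytoplasm and, in the nucleus, the transcription factor CREB. The inhibitor peptides of the PKI family bind free catalytic subunits, block their active site and carry them out of the nucleus. A-kinase anchoring proteins tie the regulatory subunits to particular places in the cell. AKAP12, also called gravin or SSeCKS, is such a protein and binds the β2-adrenoceptor itself, the receptor on which indacaterol acts. CREB binds the sequence TGACGTCA, the cAMP response element, and less tightly its core TGACG.

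The sequences before the starts of AKAP12 and PKIB are shown because these genes had the greatest differences between drug and vehicle, and a short stretch of PRKAR1A is shown because it holds the complete element. They come from RefSeq on GRCh38.p14, all on the plus strand, and capitals mark TGACGTCA or, as CGTCA, the core on the opposite strand. The AKAP12 gene lies at chr6:151239967-151358559, and the stretch shown is the 250 bases before its outermost start, chr6:151239717-151239966. The PKIB stretch is the same for that gene, chr6:122471671-122471920, and the PRKAR1A stretch is 30 bases around the element, chr17:68512370-68512399.
AKAP12: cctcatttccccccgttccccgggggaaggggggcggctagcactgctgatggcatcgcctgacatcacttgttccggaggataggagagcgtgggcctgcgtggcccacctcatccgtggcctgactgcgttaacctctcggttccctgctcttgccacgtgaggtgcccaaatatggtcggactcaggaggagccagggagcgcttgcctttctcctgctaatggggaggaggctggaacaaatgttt
PKIB: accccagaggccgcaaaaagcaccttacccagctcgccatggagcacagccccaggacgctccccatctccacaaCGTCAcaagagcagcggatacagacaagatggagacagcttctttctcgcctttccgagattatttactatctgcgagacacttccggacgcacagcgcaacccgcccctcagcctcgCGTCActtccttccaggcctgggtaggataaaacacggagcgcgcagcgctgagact
PRKAR1A: gcgaggcgcatTGACGTCAgtagccgaacg
Windows of 300 bases, 250 before to 50 after each annotated start, were searched for both motifs on both strands, and every TGACGTCA also counts as a TGACG. Windows were searched for 9 members, 28 windows in all, and windows of the same gene can overlap. Of the 9, only PRKAR1A held TGACGTCA, in 2 of its 5 windows, which overlap and share it. Of all 35116 windows of that length, 1.85% held TGACGTCA and 24.6% held TGACG. The core was found in 11 of the 28 windows, which belong to 6 of the 9 members (PRKACA, PRKACB, PRKAR1A, PRKAR1B, PRKAR2A and PKIB). Of the 27305 genes with windows 28.4% held it in some window, a share that depends on how many windows a gene has and is not set against the members' count. PKIB held it in 2 of its 3 windows, and in the stretch shown it lies 175 and 57 bases before the start. The letters of neither motif were found in the 3 windows of AKAP12, nor in those of PRKAR2B and PKIG. A match is a description of the letters and not a measured binding site.

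The 16 arrays numbered replicate 3 stood apart from the other 48. The keratin gene KRT14, a marker of basal and squamous epithelium, read 15.1 to 35.3 in replicates 1, 2 and 4 and 265824 to 419717 in replicate 3. KRT5, another such marker, read 115 to 269 against 30128 to 36669. The highest value of any probe set in an array was 16839.5 to 18914 in replicates 1, 2 and 4. In replicate 3 it was 265824 to 1081710. The replicate 3 values of both genes thus lie beyond the scale of the other arrays, and their size is not read as a fold change in expression. KRT6A and TP63, also listed as such markers, were not among the genes tested. The summed signal of KRT14 and KRT5 ran from 131 to 295 in the other arrays and from 295977.5 to 452134 in replicate 3, mostly KRT14. Both genes lay above all other arrays in replicate 3. The 5 markers of simple epithelium summed to 8420 to 14910.1 against 14139.7 to 21379, with KRT8 and KRT18 high throughout. Of these 5, 2 lay above all other arrays in replicate 3: KRT19 read at most 115.8 in the other arrays and 2287 to 4407 in replicate 3, and CDH1 read 141 to 440 against 548 to 1432. The 3 leukocyte markers summed to 135 to 296 against 266 to 421, and the 5 fibroblast markers to 7023 to 11287 against 6023 to 9197. Most of the fibroblast sum was COL1A1, which read 6480 to 10841 against 5431 to 8665 in replicate 3. COL1A2, COL3A1, DCN and LUM read at most 197 in the other arrays and at most 243 in replicate 3. The medians of COL1A2, DCN and LUM were higher in replicate 3 and that of COL3A1 was lower. The part of this difference between replicates in the results below was not tested, so results that rest on replicate 3 are given with and without it.

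Several members differed between replicate numbers. PRKAR2B, the type II regulatory subunit that is more restricted among tissues, read 92.4 to 151 in replicate 3, with a median of 132, and 202 to 479 in all other arrays, so that the ranges did not overlap. Its medians in replicates 1, 2 and 4 were 277, 357 and 339. The mean difference of replicate 3 from the others was -1.28 on the log2 scale. PKIA, the inhibitor peptide first purified from muscle, ran the other way. It read 329 to 579.8 in replicate 3 (median 401), 232 to 468 in replicate 1 (median 296), 109.9 to 238 in replicate 2 (median 185) and 126 to 205 in replicate 4 (median 176). Replicate 3 therefore overlapped replicate 1 but not replicates 2 and 4, and its mean difference from the others was 0.92. PRKACB, the β isoform of the catalytic subunit, read 1774 to 2191 in replicate 3, with medians of 2469.5, 2882, 1972 and 3008 in replicates 1 to 4. Its difference of -0.53 came with overlap between replicates 3 and 1.

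The share of the spread within groups that ran along the replicate number was 93.9% for PRKAR2B, 93.4% for PKIA and 90.1% for PRKACB. It was 76.6% for AKAP12, 53.9% for PKIG and 46.6% for PKIB, against a median of 22.6% over all genes. The other 4 subunit genes had shares of 21.7% (PRKAR2A), 7.52% (PRKAR1B), 4.65% (PRKAR1A) and 4.49% (PRKACA). Further probe sets of the same genes ran the same way: the 3 for PRKACB differed by -0.53, -0.62 and -1.03 in replicate 3, and the 2 for PKIA by 0.92 and 0.98. For PRKAR2B, PKIA and PRKACB, which arrays were high or low was thus a matter of the replicate number.

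**Figure D1:**
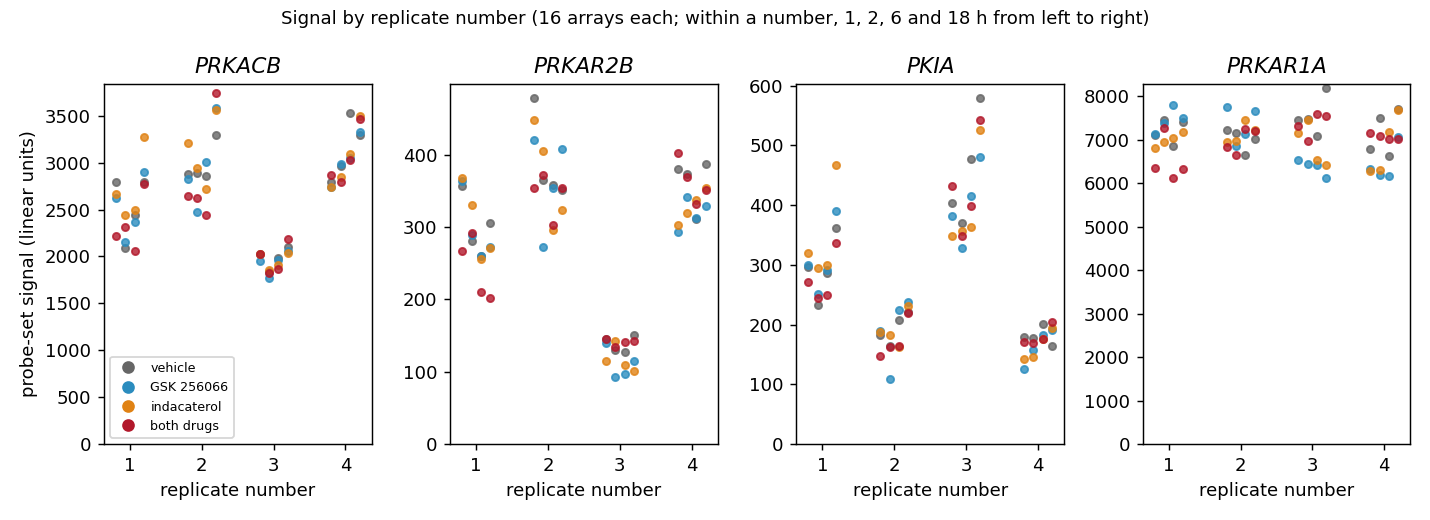
Probe-set signal (linear units, axes from 0) of PRKACB, PRKAR2B, PKIA and PRKAR1A in each of the 64 arrays, by replicate number, with treatments in colour and the 4 times side by side within a number. PRKAR2B at 92.4 to 151 in replicate 3 lies below every other array, PKIA is highest in replicate 3, and PRKAR1A shows no such steps.

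No member passed the threshold in any of the 26 comparisons of the fit of all 64 arrays (limma on log2 of signal plus 16, called at a Benjamini-Hochberg adjusted p under 0.05 over all 19775 genes). For indacaterol against vehicle, 0 of 10 members were called at 1, 2, 6 and 18 h, where 0.212%, 1.2%, 0.273% and 0.00506% of all genes were called. For both drugs against vehicle, 0 of 10 were called beside 0.283%, 1.05%, 0.759% and 0.0354% of all genes. For GSK 256066 against vehicle, 0 of 10 were called beside 0.00506% of genes at 1 h and 0% at each later time. At these rates a call among 10 genes would be rare in any list, so the counts of 0 are near the background. Without adjustment, members with p under 0.05 numbered 1, 2, 2 and 0 with indacaterol at 1, 2, 6 and 18 h. Of all genes, 7.07%, 8.01%, 4.79% and 4.42% had such a p. With both drugs the members numbered 0, 1, 1 and 0, beside 9.38%, 6.72%, 7.64% and 5.22% of all genes. With GSK 256066 they numbered 0 at each time, beside 7.1%, 4.55%, 1.75% and 3.56%. Counts this small among 10 genes cannot be told apart from these shares. The members counted were AKAP12 at 2 and 6 h with either treatment that held indacaterol, PKIB at 2 h with indacaterol, and PRKACA at 1 and 6 h with indacaterol.

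As a description of the response, and not an independent test, 10 measured CREB targets are given. Their list was chosen with earlier results of these data known. Of the 10, 6 rose with indacaterol at 1 h, 9 at 2 h and 0 at 6 and 18 h. Their median log2 change was 1.39, 2.18, 0.68 and 0.19, against -0.022, -0.00018, -0.0045 and 0.0073 over all genes. With both drugs 6, 9, 5 and 0 of them rose, with medians of 1.30, 2.14, 0.90 and 0.42. The shares of all genes called in the same comparisons stand in the paragraph above. At 6 h the counts of CREB targets depended on the replicates. Without replicate 3, 1 rose with indacaterol and 1 with both drugs, beside 0.491% and 0.743% of all genes. With the replicate number as a block 5 were called with indacaterol and 7 with both drugs, beside 2.31% and 5.27%. With GSK 256066 alone 0 of 10 were called, with medians of 0.29, 0.36, 0.18 and 0.037.

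**Figure D2:**
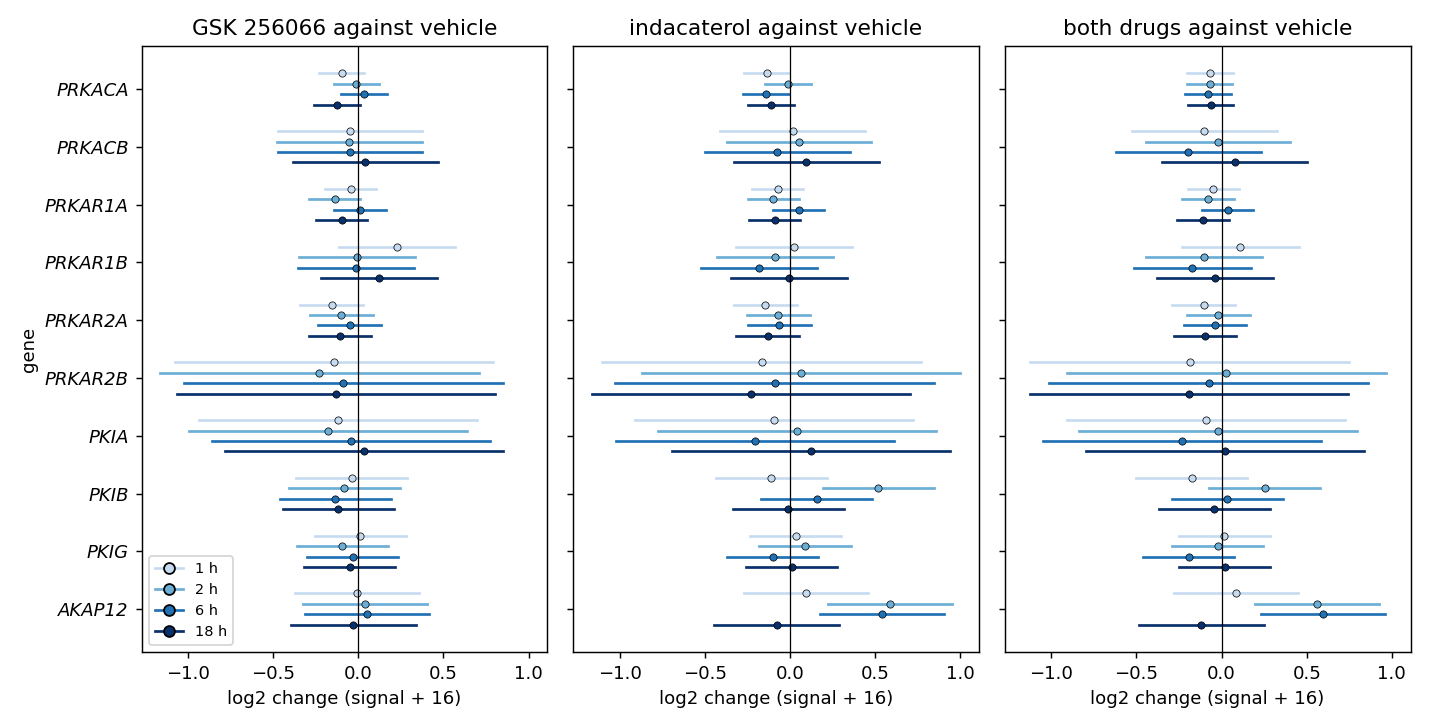
Log2 change against vehicle (signal plus 16) of the 10 genes at 1, 2, 6 and 18 h for GSK 256066, indacaterol and both drugs; points are estimates and lines their 95% confidence intervals from the limma fit. The intervals of AKAP12 at 2 and 6 h with indacaterol or both drugs, and of PKIB at 2 h with indacaterol, lie above 0. Those of PRKACA at 1 and 6 h with indacaterol lie below 0, and PRKAR2B and PKIA have the widest intervals.

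Of the catalytic subunits, PRKACA had the narrower range of signal. PRKACA, the widely expressed α isoform, read 1881 to 2740.01 over the 64 arrays, and its log2 changes with any drug ran from -0.14 to 0.034. At 1 h with indacaterol its replicates 1 to 4 read 2313, 2136, 2153 and 2007, and with vehicle 2206, 2318, 2452 and 2499.7. Replicate 1 lay above its vehicle array and the other numbers below theirs, and the groups overlapped. The change was -0.14 ± 0.067 (SE; 95% interval -0.27 to -0.0032; limma adjusted p = 0.671). At 6 h the indacaterol arrays read 2252, 1989.6, 1881 and 2099.8 and the vehicle arrays 2160.3, 2245, 2213 and 2431, again with overlap, and the change was -0.14 ± 0.067 (limma adjusted p = 1). The further PRKACA probe set, 216234_s_at, differed by -0.23 to 0.080 with any drug. PRKACB read 1774 to 3743 over the 64 arrays. It differed from vehicle by -0.19 to 0.097 with any drug, and the 95% intervals of these comparisons together spanned -0.62 to 0.52. Its greatest difference, -0.19 ± 0.21 (SE), was with both drugs at 6 h. Within replicate numbers 1 to 4 the differences there were -0.24, -0.23, -0.088 and -0.22. With the replicate number as a block the SE was 0.072, and the change did not pass (limma adjusted p = 0.118). The further PRKACB probe sets were below vehicle on average in each drug group, 202742_s_at by -0.25 to -0.055 and 235780_at by -0.44 to -0.0100, and none passed.

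Among the regulatory subunits, PRKAR1A, the type I subunit found in most tissues, read 6116 to 8189 over all arrays and differed from vehicle by -0.14 to 0.052 with any drug. Its greatest difference was at 2 h with GSK 256066, where the arrays read 7398, 6857, 6454 and 6189.8 against 7449.8, 7156, 7487 and 7495 with vehicle. Each number was lower with the drug, but replicate 1 overlapped the vehicle range, and the change was -0.14 ± 0.075 (SE; limma adjusted p = 1). The further PRKAR1A probe sets did not run alike. At 2 h with indacaterol 200604_s_at differed by 0.12, while 200603_at and 242482_at differed by -0.29 and -0.32, and none passed. PRKAR2A, the widely expressed type II subunit, read 3848 to 5538 by its brightest probe set, 225011_at, whose mean was below vehicle with every drug at every time, by -0.16 to -0.019, with a smallest limma adjusted p of 0.812. At 1 h with GSK 256066 it read 5203, 5259, 4294 and 4472 against 5319, 5473, 5444 and 5117 with vehicle, lower in each number, with a change of -0.16 ± 0.092 (SE; limma adjusted p = 0.831). Its other 4 probe sets did not keep that direction. At 2 h with indacaterol 225000_at differed by 0.11, 213052_at by 0.18 and 204843_s_at by 0.10, while 204842_x_at differed by -0.0063. At 18 h 213052_at differed by 0.10 with indacaterol and by 0.11 with both drugs, and none of these passed.

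PRKAR1B, the type I subunit best known from brain, read 96.9 to 232, with array medians over all probe sets of 101.2 to 127.4 as a guide to how dim that is, and differed by -0.18 to 0.23. Its greatest difference was at 1 h with GSK 256066, where the arrays read 122, 162, 214 and 214 against 136, 143, 146 and 160.2 with vehicle. Replicate 1 lay below the vehicle arrays and the others above them, and the change was 0.23 ± 0.17 (SE; limma adjusted p = 0.955). Its further probe set, 212559_at, differed by -0.25 to 0.071 with any drug. PRKAR2B differed by -0.23 to 0.066 with any drug, with intervals from -1.17 to 1.00. The spread between replicate numbers described above enters these intervals.

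PKIG, an inhibitor peptide found in many tissues, read 748 to 1389 and differed by -0.19 to 0.088. Its greatest difference was at 6 h with both drugs, where the arrays read 1067, 1023, 839 and 1029 against 1266, 1078, 1029 and 1153 with vehicle. Each number was lower with the drugs while the groups overlapped, and the change was -0.19 ± 0.13 (SE; limma adjusted p = 0.929). PKIA differed by -0.23 to 0.12, with intervals from -1.05 to 0.94. At 6 h with both drugs it read 249.1, 164, 399 and 177 against 287, 207, 477 and 201 with vehicle, lower in 4 of 4 numbers, with a change of -0.23 ± 0.41 (SE; limma adjusted p = 0.999). With the replicate number as a block the SE of that change was 0.11, and it did not pass (limma adjusted p = 0.29). The further PKIA probe set, 226864_at, differed by -0.23 to 0.12.

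By the brightest probe sets of the 8 members other than AKAP12 and PKIB, no group treated with a drug lay wholly outside its vehicle group at any time. The 12 further probe sets of these members gave 5 cases without overlap in 144 comparisons with vehicle, and none passed in the fit of all probe sets (smallest limma adjusted p = 0.421). PRKAR1A's 200604_s_at read 3899 to 4367 with indacaterol at 6 h and 3619 to 3891 with vehicle, with a change of 0.14 ± 0.066 (SE; limma adjusted p = 1). PRKACA's 216234_s_at lay below vehicle in that comparison, 129 to 150.2 against 159.5 to 183, and with both drugs at 1 h, 123 to 158 against 161 to 175. PRKAR2A's 204842_x_at lay below its vehicle arrays, 2567 to 2710.3, at 1 h with indacaterol (2051 to 2548) and with both drugs (2203 to 2514). These made up 1 of the 20 probe sets of the 8 members with indacaterol at 1 h, 2 with both drugs at 1 h and 2 with indacaterol at 6 h, beside 4.97%, 5.59% and 3.59% of all probe sets, which is near the background.

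PKIB, the remaining inhibitor peptide, had its greatest signal at 2 h with indacaterol. The vehicle arrays at 2 h read 122, 115, 94.98 and 109 and the indacaterol arrays 204, 138, 190.3 and 135. All 4 indacaterol arrays lay above all 4 vehicle arrays, with replicates 1 and 3 the highest. The mean was 110.1 ± 11.3 with vehicle and 167 ± 35.3 with indacaterol (SD, n = 4 each) in signal units, and the log2 change of 0.52 ± 0.16 (SE; 95% interval 0.19 to 0.85) did not pass the threshold over all genes (limma adjusted p = 0.136). Without replicate 3 it was 0.40 (limma adjusted p = 0.238). With both drugs at 2 h the arrays read 152, 117, 151 and 119, each above its own vehicle array while the groups overlapped. That change was 0.25 ± 0.16 (limma adjusted p = 0.962).

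At other times PKIB showed no such separation. At 1 h the vehicle arrays read 148, 149.7, 98.9 and 122, the indacaterol arrays 166, 122, 80.7 and 114, and the arrays of both drugs 138, 116, 85.8 and 112. At 6 h the vehicle arrays read 128, 118, 86.3 and 106 and the indacaterol arrays 146, 108, 118 and 123, and at 18 h 137, 140.2, 104 and 112 against 156, 132, 93.0 and 113. The log2 changes with indacaterol were -0.11, 0.16 and -0.0091 at 1, 6 and 18 h. With GSK 256066 alone they were -0.038, -0.082, -0.14 and -0.12 at the 4 times. Whether the indacaterol effect on PKIB differed between the times was tested in an F-test and did not pass (limma adjusted p = 1, unadjusted 0.0441). A second PKIB probe set, 231120_x_at, whose suffix marks probes that may also match other transcripts, read 14.5 to 79.7 and differed by 0.29 ± 0.21 at 2 h with indacaterol (limma adjusted p over all probe sets = 0.836). With both drugs at 2 h this probe set read 47.5 to 53.0 and the vehicle arrays 34.3 to 47.2, without overlap. That change was 0.19 ± 0.21 (SE) and did not pass. In that comparison 4.26% of all probe sets were without overlap.

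**Figure D3:**
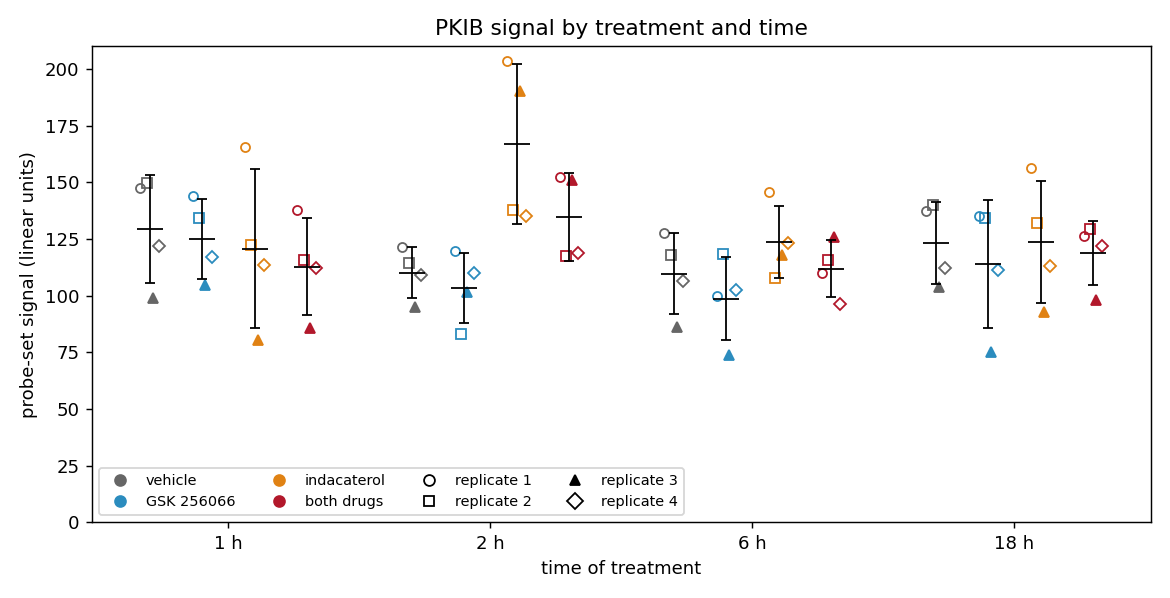
Probe-set signal of PKIB (linear units, axis from 0) in each of the 64 arrays, by time and treatment, with a marker shape for each replicate number and bars for the mean ± SD of 4 arrays. At 2 h the indacaterol arrays read 135 to 204 and the vehicle arrays 94.98 to 122; elsewhere the groups overlap their vehicle groups.

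AKAP12 had the widest range of group means among the members, 1.00 on the log2 scale between indacaterol at 2 h and both drugs at 18 h. At 2 h the vehicle arrays read 3917, 4381, 2772 and 3834 and the indacaterol arrays 6271, 5874.5, 4967 and 5129. The arrays of both drugs read 5959, 5663.5, 4960.5 and 5163. All arrays with indacaterol or both drugs lay above all vehicle arrays, and replicate 3 was the lowest of each group. The change with indacaterol was 0.59 ± 0.18 (SE; 95% interval 0.22 to 0.95) and that with both drugs 0.56 ± 0.18 (0.19 to 0.92), from means of 3726 ± 680.0 to 5560.4 ± 617 and 5436 ± 457 (SD, n = 4 each). Neither passed over all genes in the fit without replicate numbers (limma adjusted p = 0.125 and 0.179).

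The same order was seen at 6 h. The vehicle arrays read 4045, 3928, 2610.4 and 3979, the indacaterol arrays 6007, 5462, 4595 and 4962, and the arrays of both drugs 5760.04, 5582, 5346 and 5027. Again every treated array lay above every vehicle array. The change was 0.54 ± 0.18 with indacaterol (SE; 95% interval 0.18 to 0.91; limma adjusted p = 0.419) and 0.59 ± 0.18 with both drugs (0.23 to 0.96; limma adjusted p = 0.129). Genes whose treated group lay wholly outside the vehicle group made up 5.5% of all genes at 2 h and 3.76% at 6 h with indacaterol, and 4.99% and 5.7% with both drugs. Among the members these were AKAP12 and PKIB at 2 h with indacaterol, 2 of 10, and AKAP12 alone, 1 of 10, in the other 3 comparisons. The comparisons of indacaterol and of both drugs share their vehicle arrays, so they are not independent.

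The call for AKAP12 turned on how the replicate number was treated. With the replicate number as a block in the model, AKAP12 rose with indacaterol at 6 h (limma adjusted p = 7.55e-05) and with both drugs at 2 h (2.33e-05) and 6 h (9.3e-06), where the same-numbered arrays deviated together. That model called 2.31%, 3.45% and 5.27% of all genes in these comparisons. Without replicate 3 and with no block, AKAP12 rose with indacaterol at 2 h by 0.51 (limma adjusted p = 0.000204) and at 6 h by 0.45 (0.00234), and with both drugs by 0.47 (0.000807) and 0.45 (0.00194). That fit called 1.4%, 0.491%, 1.09% and 0.743% of all genes. Within replicate numbers 1 to 4, the log2 differences from vehicle at 2 h were 0.68, 0.42, 0.84 and 0.42 with indacaterol and 0.60, 0.37, 0.84 and 0.43 with both drugs. At 6 h they were 0.57, 0.47, 0.81 and 0.32 with indacaterol and 0.51, 0.51, 1.03 and 0.34 with both drugs, so replicate 3 had the greatest difference each time.

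At 1 h AKAP12 differed little from vehicle. The vehicle arrays read 3922, 3878, 2936 and 4271, the indacaterol arrays 4555, 4425, 3127 and 3923, and the arrays of both drugs 4014, 3932, 3498 and 4372, with changes of 0.093 ± 0.18 and 0.085 ± 0.18 (SE). At 18 h the vehicle arrays read 3211, 3278, 2307 and 3308, the indacaterol arrays 3375, 3242, 1824 and 3231, and the arrays of both drugs 2774, 3399.99, 2031 and 3015. These changes were -0.079 ± 0.18 and -0.12 ± 0.18, and the groups overlapped. An F-test of whether the effect differed between the 4 times did not pass for indacaterol (limma adjusted p = 0.983) or for both drugs (0.657), beside 0.268% and 0.344% of all genes. Without replicate 3 it passed for both drugs (0.00915) and not for indacaterol (0.0512), beside 0.43% and 0.334%.

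With GSK 256066 alone, AKAP12 read 4148, 4105, 2753 and 3975 at 1 h, 4183, 4230.3, 2793 and 4093 at 2 h, 4195, 4377, 2837 and 3666 at 6 h, and 3221, 3611, 2026 and 3146 at 18 h. Each group overlapped its vehicle group. The changes were -0.0083, 0.037, 0.052 and -0.029, with intervals of about 0.36 to each side, from -0.37 to 0.36 at 1 h and from -0.31 to 0.42 at 6 h.

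Ordered by mean signal, the 16 groups of AKAP12 fell into 3 runs whose neighbours did not differ beyond their spread. First came indacaterol at 2 h (5560.4 ± 617), the combination at 2 h (5436 ± 457), the combination at 6 h (5429 ± 317) and indacaterol at 6 h (5257 ± 614). Then came all 8 remaining groups at 1, 2 and 6 h, from indacaterol at 1 h (4008 ± 647) down to vehicle at 6 h (3641 ± 689). The groups at 18 h came last, from vehicle (3026 ± 481) to both drugs (2805 ± 577), and the step from the second run to the third was smaller than the SD of vehicle at 6 h. The 16 arrays of the first run read 4595 to 6271 and the other 48 arrays 1824 to 4555, without overlap. The same separation held within each replicate number, for example 4595 to 5346 against 1824 to 3498 in replicate 3. This grouping was made after the values were seen and carries no test.

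**Figure D4:**
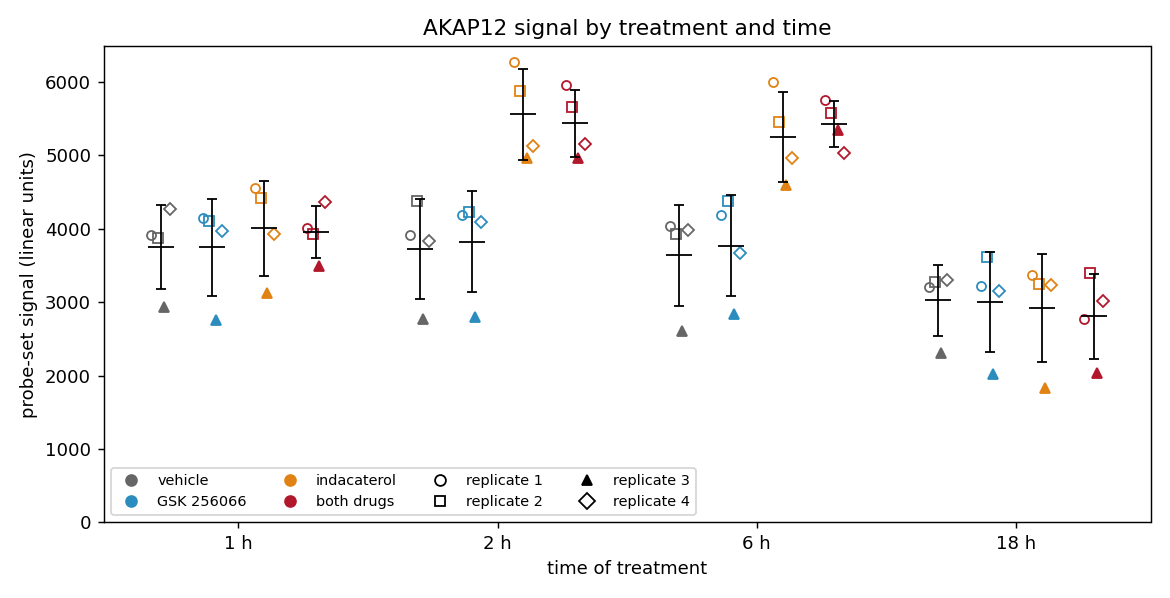
Probe-set signal of AKAP12 (linear units, axis from 0) in each of the 64 arrays, by time and treatment, with a marker shape for each replicate number and bars for the mean ± SD of 4 arrays. The arrays of indacaterol and of both drugs at 2 and 6 h read 4595 to 6271, above all others, and replicate 3 (filled triangles) is low in most groups.

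The other probe sets of AKAP12 bore on the same gene with other probes. At 2 h with indacaterol, 227530_at differed from vehicle by 0.89 ± 0.25 (SE), 227529_s_at by 0.94 ± 0.28 and 231067_s_at by 1.03 ± 0.25, each more than the 0.59 of 210517_s_at, the brightest. The dim probe set 1555395_at, which read 16.2 to 55.8, differed by -0.034 ± 0.16. In the fit of 54613 probe sets, 1 of the 27 member probe sets was called at 2 h with indacaterol, beside 0.938% of all probe sets. It was 231067_s_at (limma adjusted p = 0.0173), which was also the 1 of 27 called with both drugs at 2 h (change 1.02 ± 0.25; adjusted p = 0.0234), beside 0.751% of all probe sets. At 6 h 0 of 27 were called with either treatment, beside 0.172% and 0.485%. There 227530_at, 227529_s_at and 231067_s_at differed by 0.71 to 0.87 with indacaterol and by 0.79 to 0.9956 with both drugs.

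Without replicate 3, the 4 brighter AKAP12 probe sets all passed at 2 and 6 h with indacaterol and with both drugs, with limma adjusted p from 3.41e-05 to 0.0489. They made up all 4 of the member probe sets called in each of these comparisons, beside 1.05% and 0.309% of all probe sets with indacaterol and 0.776% and 0.458% with both drugs. With GSK 256066, the 5 probe sets differed by 0.037 to 0.198 at 2 h and by -0.057 to 0.22 at 6 h, and none passed. The 4 brighter probe sets were lower in replicate 3 by -0.45 to -0.71 on the log2 scale, and 1555395_at by -0.0048.

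**Figure D5:**
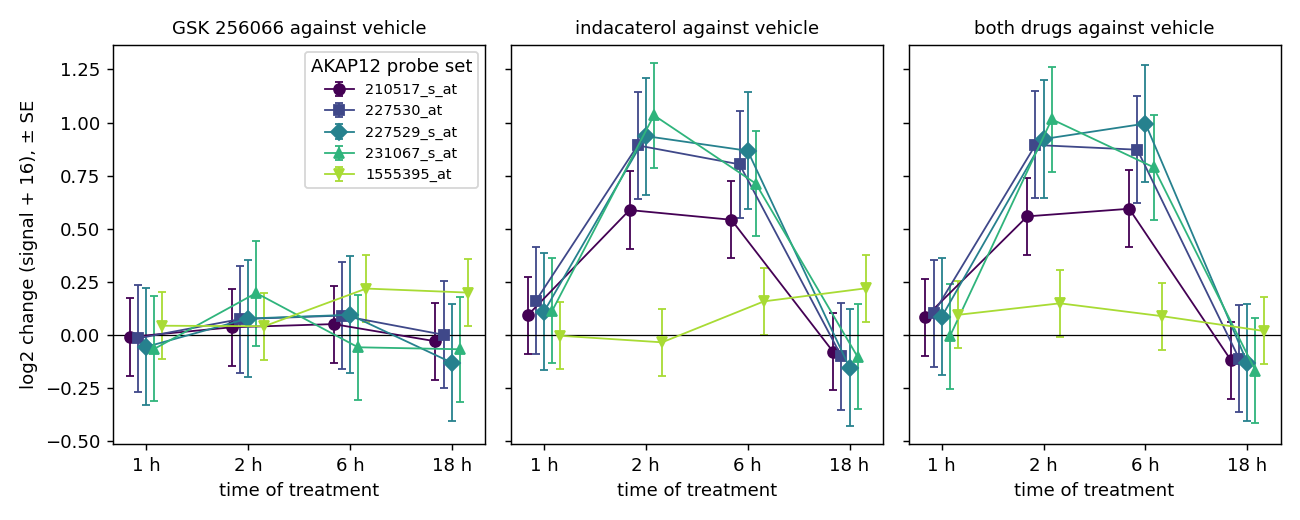
Log2 change against vehicle (signal plus 16) of the 5 AKAP12 probe sets at 1, 2, 6 and 18 h for GSK 256066, indacaterol and both drugs; bars are ± SE from the fit of all probe sets. With indacaterol or both drugs 4 probe sets lie above 0 at 2 and 6 h and near 0 at 1 and 18 h, while 1555395_at stays between -0.034 and 0.22.

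Adding GSK 256066 to indacaterol was tested as both drugs against indacaterol. Here 0 of 10 members were called at each time, beside 0% of all genes, and 0 members had an unadjusted p under 0.05. Of all genes, 1.26%, 1.28%, 1.75% and 1.55% had such a p at 1, 2, 6 and 18 h. For AKAP12 the difference was -0.0087 at 1 h, -0.030 at 2 h (95% interval -0.39 to 0.34), 0.052 at 6 h (-0.31 to 0.42) and -0.040 at 18 h. The intervals exclude neither a modest gain nor a modest loss, so they do not show that the treatments act alike. They come from the fit without replicate numbers. At 2 and 6 h, where the pairing rule was met, the replicate number as a block lowered the SE of AKAP12 to 0.092, and AKAP12 was not called. For PKIB the difference was greatest at 2 h, -0.27 ± 0.16 (SE; 95% interval -0.59 to 0.061; limma adjusted p = 1), with each number lower with both drugs than with indacaterol alone. For the other 8 members it ran from -0.12 to 0.085. The interaction, the departure of the combination from the sum of the drugs on the log2 scale, ran from -0.18 to 0.19 over the members and the 4 times, and 0 of 10 were called beside 0% of all genes. For AKAP12 it was -0.067 ± 0.26 (SE) at 2 h and -0.00048 ± 0.26 at 6 h.

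With vehicle alone, the later times were set against 1 h. At 2, 6 and 18 h 0 of 10 members were called, beside 0.192%, 1.21% and 1.58% of all genes. An unadjusted p under 0.05 was found for 0 members, beside 12.5%, 11.3% and 9.69% of all genes. An F-test over the 4 times called 0 of 10 beside 6.65% of all genes. AKAP12 was lower at 18 h than at 1 h in 4 of 4 replicate numbers, with a change of -0.31 ± 0.18 (SE; limma adjusted p = 0.656). With the replicate number as a block the adjusted p was 0.0254, where 7.92% of all genes were called; at 6 h the block called 0 of 10 beside 7.02%. Without replicate 3 the change at 18 h was -0.30 (limma adjusted p = 0.0555), beside 2.04%. PKIA was higher at 18 h in 3 of 4 numbers, 362, 221, 579.8 and 165 against 297, 182, 403 and 179.9, with a change of 0.23 ± 0.41 (limma adjusted p = 1). In the probe-set fit with the block, 1 of 27 member probe sets passed at 6 h, PRKAR1A's 200604_s_at (-0.21; limma adjusted p = 0.0183), beside 4.72% of all probe sets. At 18 h 3 of 27 passed, beside 5.38%: PRKAR2A's 225000_at (-0.18; 0.0148) and 213052_at (-0.25; 0.0413) and AKAP12's 210517_s_at (-0.31; 0.0367). Without the block, 0 of 27 passed at either time, beside 0.846% and 1.16% of all probe sets.

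Of the other A-kinase anchoring proteins, 25 of 28 listed genes were measured, and 0 were called with any drug at any time. Their median change with indacaterol was 0.074 at 2 h and -0.0063 at 6 h, against -0.00018 and -0.0045 over all genes. With the replicate number as a block, 1 was called with indacaterol at 6 h and 2 with both drugs at 6 h, beside 2.31% and 5.27% of all genes. MAP2, a microtubule protein that binds type II PKA, rose by this fit: it went from 1135 to 1861 with indacaterol (0.71; limma adjusted p with the block = 0.00159) and to 1842 with both drugs (0.70; 0.0011). RAB32, a small GTPase that anchors PKA at mitochondria, fell with both drugs by 0.32 (limma adjusted p with the block = 6.98e-05). Without the block these did not pass (0.184, 0.0972 and 0.536). In vehicle, AKAP8L, a nuclear relative of AKAP8, fell by 0.52 from 1 to 6 h (limma adjusted p = 0.00944, and 0.0201 without replicate 3). AKAP8, which binds PKA and chromatin, fell by 0.30 from 1 to 18 h (0.0451, and 0.116 without replicate 3). With the block, 4 of the 25 were called at 6 h and 3 at 18 h in vehicle, beside 7.02% and 7.92% of all genes, MAP2 among them each time.

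Of 6 measured genes among other cAMP effectors and PKA-like kinases, such as the exchange factors RAPGEF3 and RAPGEF4, 0 were called with any drug. With the block POPDC3, a cAMP-binding membrane protein of the Popeye family, was called with both drugs at 6 h (-0.32; limma adjusted p with the block = 0.0432, and 0.991 without it), where the block called 5.27% of all genes. Of 8 genes of phosphatases that remove PKA's phosphate marks, 1 was called with a drug, in a comparison where 0.759% of all genes were called. PPP3CB, a catalytic subunit of calcineurin, fell by 0.39 with both drugs at 6 h, from 1684 to 1286 (limma adjusted p = 0.0263, and 0.11 without replicate 3). With indacaterol at 6 h it differed by -0.25, called with the block (0.049) and not without it (0.706). PPP3CA, the other calcineurin isoform listed, fell by 0.27 in vehicle from 1 to 18 h (0.0186, and 0.0616 without replicate 3).

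Of the proteins that AKAP12 is known to scaffold, 5 of 6 were measured. Of these, 1 rose at 2 h with indacaterol and with both drugs, where 1.2% and 1.05% of all genes were called. At 6 h with both drugs 2 rose, where 0.759% of all genes were called. The gene at 2 h was PDE4D, a cAMP phosphodiesterase that GSK 256066 inhibits and that is also counted among the CREB targets. Its mean signal went from 398 to 2188 with indacaterol (2.34 ± 0.44, SE; limma adjusted p = 0.000665) and to 2405 with both drugs (2.46 ± 0.44; 0.000336). At 6 h with both drugs it rose by 1.88 (0.0165, and 0.0604 without replicate 3). With indacaterol it differed by 1.02 at 1 h and 1.47 at 6 h, called with the block (0.00171 and 1.05e-06) and not without it (0.579 and 0.242). PRKCA, a protein kinase C isoform, rose with both drugs at 6 h by 0.51 (limma adjusted p = 0.0131), but without replicate 3 the change was 0.31 (0.144). With indacaterol at 6 h PRKCA differed by 0.43 (0.133, and 0.0326 with the block). PLK1, a mitotic kinase, fell by 0.68 in vehicle from 1 to 6 h (0.00589, and 0.0867 without replicate 3). The median change over the 5 genes at 2 h was 0.012 with indacaterol and -0.024 with both drugs, against -0.00018 and -0.022 over all genes.

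The genes whose 16 group means ran most like those of AKAP12 were CSNK1E, which encodes a casein kinase, DKK1, a secreted inhibitor of Wnt signalling, and GPRC5A, an orphan receptor of airway epithelium. Their Pearson correlations over the 16 group means (log2 scale, among 13443 genes with a mean signal of at least 100) were 0.984, 0.973 and 0.970. For PKIA, the member with the next widest range of group means (0.69), they were RLF at 0.972, NUP107 at 0.962 and POLR2G at 0.962. These correlations share the same arrays and are given as a description.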

How the data were processed

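RNA of 64 BEAS-2B samples was measured on 1-channel Affymetrix arrays. The deposited values are intensities per probe set, on a linear scale. The submitters' processing notes list PLIER and Transcriptome Analysis Console 4, and their settings are not given in the sources used here. Of 54675 probe sets, 62 controls were left out. The platform annotation gave a single gene symbol for 41091, several for 1801 and no symbol for 11721, and 41037 symbols were updated through gene IDs to RefSeq. Array medians ran from 101.2 to 127.4, and detection calls were not used here.

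Values were tested as log2(intensity + 16), which understates changes of dim genes, with limma 3.58.1 in R 4.3.3 (lmFit, eBayes, two-sided, residual df 48), with a mean per group and no filter, and tested on simulated data first. Of 19 comparisons between groups, 14 met the pairing rule, that arrays of each shared replicate number deviate together (correlation over 0.1 in all 4 numbers); in indacaterol or GSK 256066 against vehicle at 2 h, both drugs against vehicle or indacaterol at 1 h, and vehicle at 2 h against 1 h, the lowest correlation was 0.0912 or less. Pairing comes from the data, since the labels do not say what a number marks.

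Named genes are all 10 members, called genes of the lists (up to 5 per list and comparison), and the 3 genes most like AKAP12 and PKIA. Members and lists were chosen with earlier results of these data known. Alternatives were the block, scaling, pseudocount, a dim filter, the probe set taken, the estimate of spread and leaving out arrays. The number of arrays limits the precision.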

Additional observations from a re-analysis of the deposited data

Results flagged for a closer look

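In groups of 4 arrays, an array whose gap to its nearest neighbour, as a ratio to the group's range, exceeded Dixon's 95% critical value was marked as standing far from the others. This was done for the 10 genes in 16 groups, 160 sets in all, and 13 were marked, where chance marks about 5%, or 1 in 20. The sets share the same arrays and are not independent, and replicate 3 with indacaterol at 18 h was marked for both AKAP12 and PRKACB. Of the 13 marks, 8 fell on replicate 3, each the lowest of its group.

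AKAP12 accounted for 5 of them, all replicate 3: with vehicle at 6 h (2610.4 against 3928 to 4045; ratio 0.933) and at 18 h (2307 against 3211 to 3308; 0.917), with GSK 256066 at 1 h (2753 against 3975 to 4148; 0.896) and at 2 h (2793 against 4093 to 4230.3; 0.920), and with indacaterol at 18 h (1824 against 3231 to 3375; 0.929). PRKACB in replicate 3 was marked with vehicle at 1 h (2023 against 2790.4 to 2874; 0.916) and with indacaterol at 18 h (2032 against 3278 to 3563; 0.851). PRKAR2A in replicate 3 was marked with indacaterol at 6 h (4237 against 4973 to 5109; 0.856).

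The 5 others were PRKAR2A with vehicle at 6 h, replicate 4, the highest (5319 against 4924 to 4978; 0.859), and PRKAR1A with vehicle at 2 h, replicate 2, the lowest (7156 against 7449.8 to 7495; 0.870). PKIG was marked with vehicle at 2 h, replicate 4, the lowest (1055 against 1128 to 1130.02; 0.968). PRKAR1B was marked with both drugs at 18 h, replicate 1, the highest (162 against 121 to 125; 0.882), and with indacaterol at 1 h, replicate 4, the highest (172 against 140.5 to 144; 0.888).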

How the results depend on the processing

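Of 634 counts of called members under an alternative, 611 stayed at 0 and 23 became 1 or 2; no called value reversed. The gene was AKAP12 throughout, joined by PKIB with indacaterol at 2 h and by PKIA in vehicle over time, both under the replicate block. With the replicate block, 2 members were called with indacaterol at 2 h, where the numbers did not meet the pairing rule (AKAP12, limma adjusted p = 7.51e-06; PKIB, 0.0048) beside 3.8% of all genes, and 1 each with indacaterol at 6 h, with both drugs at 2 and 6 h and in vehicle at 18 h against 1 h. In the F-tests over the 4 times the block gave 1 with indacaterol (0.00042), 1 with both drugs (0.00012) and 2 in vehicle (AKAP12, 0.0253; PKIA, 0.0348), beside 1.99%, 2.91% and 22.3% of all genes. The replicate block on replicates 1, 2 and 4 gave the same counts, except 1 in vehicle over the 4 times; it changed no other call. With the mean of all probe sets, 1 member was called with both drugs at 2 h (AKAP12, 0.71; limma adjusted p = 0.0477). The share of all genes called was not counted for this fit or for the block on replicates 1, 2 and 4. It was also not counted for the vehicle F-test without replicate 3. Leaving out a replicate number or single array gave 0 to 1 calls for indacaterol and for both drugs at 2 and 6 h, and for the F-tests of both drugs and of vehicle, the 1 always without replicate 3 (AKAP12; vehicle F-test 0.0303), and 0 elsewhere. Of 84 alternative values of AKAP12 at 2 and 6 h with indacaterol or both drugs, all 84 were above 0, from 0.39 to 0.71, and 13 passed. PKIB at 2 h with indacaterol ranged from 0.40 to 0.61. For the comparisons other than the F-tests, changes that were not called altered sign in 643 of 5150 alternative values. The cause was not tested. The number of arrays and, for PKIB and PRKAR1B, signals near the array median limit these results.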
